A study of Mus musculus with 8 samples.

Results

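The genes described here are 10 feedback and output genes of the FGF-ERK pathway, namely *Fgf4*, *Dusp4*, *Dusp6*, *Spry2*, *Spry4*, *Spred1*, *Etv4*, *Etv5*, *Phlda1* and *Egfr*. They were chosen by symbol among the 23420 gene symbols of the count tables, because they code for the ligand FGF4 or act as targets and feedback regulators of ERK, and the rule uses symbols alone, though the set was drawn up with earlier results of these data known. RNA-seq was performed on mouse embryonic stem cells (mESCs), pluripotent cells derived from blastocysts of a 129 x C57BL/6 background and grown without feeder cells in serum and the cytokine LIF. The 2 lines compared were IPO13+/+ and IPO13-/-, the latter lacking the nuclear transport receptor Importin-13, and each was used untreated or after oxidative stress, given as 125 µM H2O2 for 1 h with 2 h of recovery in fresh medium. Each of these 4 groups held 2 libraries, which makes 8 in all. Each genotype is 1 described line, and the number of clones behind it is not given in the sources used here. Nothing in the labels says that the 2 libraries of a group came from separate cultures, so the p-values measure only the spread between these libraries, which may be technical.

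In mESCs, FGF4 is secreted by the cells themselves and binds FGF receptors, which signal through RAS, RAF and MEK to the kinase ERK and prime the cells to leave the naive pluripotent state. ERK activity induces its own brakes. DUSP4 and DUSP6 are phosphatases that remove the activating phosphates from ERK, the Sprouty proteins SPRY2 and SPRY4 and the related SPRED1 act on the way from receptor to RAF, and the ETS transcription factors ETV4 and ETV5 carry the transcriptional output. *Phlda1* codes for a pleckstrin homology-like domain protein that is widely used as an ERK output marker, and *Egfr* for the receptor of epidermal growth factor, a second entry into the same cascade.

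The targeted gene checked the labels. *Ipo13* lies on the minus strand of chr4:117894486-117914999 (GRCm38). The IPO13+/+ libraries held 4716 and 4786 counts on it without and 4928 and 4791 with stress, and the IPO13-/- libraries 1965 and 1555 without and 1610 and 1604 with stress. The 2 genotypes did not overlap in either condition, with log2 fold changes of -1.44 (FDR = 9.53e-19) without and -1.48 (FDR = 6.91e-19) with stress in edgeR's quasi-likelihood test. Reads on *Ipo13* thus remained in the knockout libraries, and which part of the gene the knockout removes is not given in the sources used here. The libraries held between 60397877 and 73789079 counts on genes, so that 3 counts, taken as the smallest number told from 0, correspond to 0.0407 to 0.0497 CPM, the count scaled to a common library size. All 10 feedback genes lay far above this floor, the lowest single value being the 258 counts of *Egfr* in the second untreated IPO13-/- library. The 2 libraries of untreated IPO13+/+ cells differed most from each other, with a mean chi-square of 15 per gene against 2.26 to 6.59 in the other groups, and in no group did the 2 libraries agree within sampling noise.

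The identity of the cells was checked by lists of marker genes. All 7 pluripotency markers (*Pou5f1*, *Sox2*, *Nanog*, *Zfp42*, *Klf4*, *Esrrb* and *Tdgf1*) were present in every library, with summed levels of 4309 to 4944 CPM. The summed levels over all libraries were 260.4 to 346.3 CPM for 4 primed epiblast markers, 53.4 to 94.4 CPM for 5 trophectoderm markers, 20.5 to 30.0 CPM for 3 neural progenitor markers, 15.7 to 23.9 CPM for 6 primitive endoderm markers, 6.27 to 9.19 CPM for 4 fibroblast markers, and 0.443 to 1.19 CPM for 3 early mesoderm markers. Of these genes only *Postn*, a fibroblast marker, was at 0 counts in both libraries of a group, which was the case in untreated and in treated IPO13+/+ cells. In bulk RNA, fewer cells of one kind and less RNA per cell cannot be told apart.

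Levels of the 10 genes were first compared per length in untreated IPO13+/+ cells, as CPM divided by the summed exon length in kilobases (GENCODE M21). *Fgf4* was highest with 89.8 ± 2.45 CPM per kb (SD, n = 2), followed by *Etv5* with 63.7 ± 1.08, *Etv4* with 50.3 ± 2.32 and *Spry2* with 40.7 ± 2.20. The middle of the order was held by *Spry4* with 26.9 ± 2.21, *Dusp6* with 15.9 ± 0.661 and *Spred1* with 12.4 ± 0.565 CPM per kb. *Phlda1* with 10.9 ± 0.431, *Dusp4* with 9.20 ± 0.123 and *Egfr* with 0.372 ± 0.0186 CPM per kb were lowest. The ligand and the ETS factors thus led the list and the EGF receptor closed it, and no 2 neighbours in the order lay within the sum of their SDs. The exon length sums all annotated transcripts, and the transcripts used by these cells were not measured.

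Promoters were read for the members with an entry in the RefSeq promoter table (GRCm38.p6). *Spred1*, *Fgf4*, *Dusp6*, *Egfr*, *Spry2* and *Etv5* had one, which makes 6 of 10, and *Dusp4*, *Spry4*, *Etv4* and *Phlda1* were not matched. The study asked about the transcription factors SP1 and KLF4. The GC box bound by SP1-type factors (GGGCGG, either strand) was sought in a window from 250 bases before to 50 bases after the start. It was present in 4 of these 6 genes, against 35.7% of all 32851 promoters in the table. These units differ, since the share counts each promoter entry, whereas *Etv5* was counted as 1 gene if either start held a site. The 6 genes have 7 entries. The upstream start of *Etv5* and that of *Spred1* each had 3 such sites, *Fgf4* had 2 and *Egfr* had 1, while *Dusp6*, *Spry2* and the downstream start of *Etv5* had none. The 3 windows shown are those of *Egfr*, which of the 10 genes rose most under stress in IPO13+/+ cells, of the ligand *Fgf4*, which fell, and of *Etv5*, which of the 10 genes was raised most in untreated knockout cells. Each gives the 250 bases before the start, on the gene's own strand, with GC boxes in capitals.
*Egfr* (chr11:16751953-16752202, plus strand, GRCm38.p6): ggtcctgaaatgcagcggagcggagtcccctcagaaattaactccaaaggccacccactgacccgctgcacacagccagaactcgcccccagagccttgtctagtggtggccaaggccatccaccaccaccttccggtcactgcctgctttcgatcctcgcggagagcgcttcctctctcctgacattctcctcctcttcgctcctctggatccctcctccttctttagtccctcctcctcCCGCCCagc
*Fgf4* (chr7:144861136-144861385, plus strand, GRCm38.p6): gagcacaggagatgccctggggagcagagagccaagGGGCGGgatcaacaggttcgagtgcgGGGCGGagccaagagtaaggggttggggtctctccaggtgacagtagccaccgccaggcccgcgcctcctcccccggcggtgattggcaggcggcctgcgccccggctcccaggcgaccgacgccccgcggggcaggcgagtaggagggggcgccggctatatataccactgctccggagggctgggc
*Etv5* (chr16:22439571-22439820, minus strand, GRCm38.p6): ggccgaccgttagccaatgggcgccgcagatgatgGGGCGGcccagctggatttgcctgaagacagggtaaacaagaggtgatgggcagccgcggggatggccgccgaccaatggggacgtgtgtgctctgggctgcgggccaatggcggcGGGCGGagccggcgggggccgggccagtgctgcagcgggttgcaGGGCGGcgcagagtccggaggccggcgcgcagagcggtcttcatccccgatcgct

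None of the 6 genes held the ETS motif CCGGAAGT (3.89% of all promoters), the AP-1 motif TGAGTCA (5.2%), the CRE motif TGACGTCA (1.79%), the KLF-type motif GGGTGGGG (9.99%) or the CArG box (1.63%) in these windows. A match or its absence describes the letters in the window and not binding. Of the genes with a GC box, *Egfr* rose and *Fgf4*, *Spred1* and *Etv5* fell under stress in IPO13+/+ cells, as given below. A relation of the GC boxes to these changes was not tested.

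The response to oxidative stress was compared within each genotype. In the wild type, 4 of the 10 genes rose at an FDR below 0.05, *Dusp4*, *Spry4*, *Phlda1* and *Egfr*, where 11.5% of the 19424 tested genes rose. *Fgf4*, *Spred1* and *Etv5*, 3 genes, fell, where 13.8% of all tested genes fell. A rise of at least 2-fold, the limit used in the study, was reached by 1 gene, *Egfr*, against 2.75% of all genes. In the knockout, 7 genes rose (14.9% of all genes), namely *Dusp4*, *Dusp6*, *Spry2*, *Spry4*, *Etv4*, *Phlda1* and *Egfr*. *Dusp4*, *Phlda1* and *Egfr*, 3 genes, rose by at least 2-fold (2.52% of all genes), and 1 gene, *Fgf4*, fell (14.4% of all genes). The 10 genes had a median log2 fold change of 0.03 in the wild type and 0.23 in the knockout, beside medians of 0.00 over all tested genes in both. Genes with high counts pass the test more easily, and among the 11224 genes with a mean log2 CPM above 1, 14.6% rose and 22.5% fell in the wild type, and 20.9% rose and 22.2% fell in the knockout.

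*Fgf4*, the ligand that drives ERK in these cells, fell in both genotypes. Its TMM-scaled levels were 281 and 292 CPM in untreated and 246 and 244 CPM in treated IPO13+/+ libraries, and 267 and 275 CPM in untreated and 226 and 222 CPM in treated IPO13-/- libraries. Both treated groups lay below both untreated groups. The log2 fold change was -0.23 ± 0.04 (SE; FDR = 6.31e-05, edgeR) in IPO13+/+ and -0.27 ± 0.04 (FDR = 3.94e-06) in IPO13-/- cells, and these responses differed by -0.05 with a 95% interval of -0.16 to 0.07.

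*Dusp4*, the nuclear ERK phosphatase, had 25.5 and 25.0 CPM in untreated and 29.7 and 30.5 CPM in treated IPO13+/+ libraries. The IPO13-/- libraries had 24.9 and 23.3 CPM without and 50.1 and 46.6 CPM with stress. The 2 treated IPO13-/- libraries thus stood above the other 6, which all lay at or below 30.5 CPM. The log2 fold change was 0.26 ± 0.05 (FDR = 6.07e-04, edgeR) in IPO13+/+ and 1.00 ± 0.05 (FDR = 1.49e-14) in IPO13-/- cells. The latter sits at the 2-fold limit, and it was 0.98 without the second untreated and 0.96 without the first treated IPO13-/- library, and 0.97 when library totals replaced the TMM factors.

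*Dusp6*, the cytoplasmic ERK phosphatase, had 48.3 and 51.2 CPM in untreated and 52.1 and 50.5 CPM in treated IPO13+/+ libraries, which overlapped. The knockout level went from 41.0 and 37.6 to 49.3 and 47.4 CPM, without overlap. The rise in IPO13-/- cells, 0.30 ± 0.05 on the log2 scale (FDR = 4.75e-05, edgeR), started from a lower untreated level and ended near that of IPO13+/+ cells. The value in IPO13+/+ cells was 0.04 ± 0.05 (FDR = 0.602).

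Among the Sprouty and Spred inhibitors, *Spry4* rose in both genotypes, from 135 and 120 to 171 and 163 CPM in IPO13+/+ libraries and from 121 and 110 to 181 and 156 CPM in IPO13-/- libraries. The log2 fold changes were 0.39 ± 0.06 (FDR = 1.09e-05, edgeR) and 0.55 ± 0.06 (FDR = 3.27e-08). All 4 treated libraries lay above all 4 untreated ones. *Spry2* went from 88.2 and 81.7 to 80.0 and 78.8 CPM in IPO13+/+ libraries, a log2 fold change of -0.10 ± 0.04 that did not pass the test (FDR = 0.118), and from 84.5 and 83.9 to 94.7 and 94.5 CPM in IPO13-/- libraries, where it rose by 0.17 ± 0.04 (FDR = 0.00455). Without the second untreated IPO13+/+ library the value in IPO13+/+ cells was -0.15 with an FDR of 0.0123. *Spred1* had 86.9 and 81.5 CPM in untreated and 74.1 and 73.8 CPM in treated IPO13+/+ libraries and fell by 0.19 on the log2 scale (FDR = 0.00326; 0.0502 when only the 4 libraries compared were fitted). The IPO13-/- libraries had 106 and 98.0 CPM without and 95.6 and 93.9 CPM with stress, a log2 fold change of -0.11 ± 0.05 (FDR = 0.0831). The *Spred1* groups did not overlap in either genotype, and the value in IPO13-/- cells had an FDR of 0.032 without the first and 0.0319 without the second untreated IPO13+/+ library, which enter this comparison only through the estimate of the spread.

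The ETS factors *Etv4* and *Etv5* had small fold changes. *Etv4* had 151 and 161 CPM in untreated and 162 and 156 CPM in treated IPO13+/+ libraries, which overlapped (log2 fold change 0.03 ± 0.04, FDR = 0.738, edgeR). The IPO13-/- libraries went from 124 and 127 to 136 and 138 CPM, a rise of 0.13 ± 0.04 (FDR = 0.0236), a call that was lost without the first untreated (FDR = 0.189) or the second treated (FDR = 0.106) IPO13-/- library, and also with library totals (FDR = 0.0957) and with DESeq2 without independent filtering (FDR = 0.0507). *Etv5* had 264 and 258 CPM in untreated and 221 and 222 CPM in treated IPO13+/+ libraries and fell by 0.24 on the log2 scale (FDR = 2.06e-05). In the knockout it had 367 and 366 CPM without and 347 and 352 CPM with stress, which gave -0.07 ± 0.04 (FDR = 0.188). The *Etv5* libraries of the 2 genotypes were far apart in both conditions.

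*Phlda1* had 24.7 and 23.4 CPM in untreated and 38.3 and 38.4 CPM in treated IPO13+/+ libraries. Knockout libraries had 12.6 and 10.7 CPM without and 26.5 and 27.4 CPM with stress. Treated libraries lay above untreated ones in each genotype, and the treated IPO13-/- libraries only came slightly above the untreated IPO13+/+ ones. The log2 fold change was 0.67 ± 0.06 (FDR = 4.58e-10, edgeR) in IPO13+/+ and 1.20 ± 0.06 (FDR = 2.36e-14) in IPO13-/- cells.

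*Egfr*, the least abundant of the 10 genes, had 293 and 285 counts without and 687 and 692 counts with stress in IPO13+/+ libraries, or 4.37 and 4.07 against 10.10 and 10.01 CPM. In the knockout it had 276 and 258 counts without and 553 and 574 counts with stress, or 3.64 and 4.16 against 8.54 and 9.28 CPM. All 4 treated libraries lay above all 4 untreated ones. The log2 fold change was 1.25 ± 0.08 (FDR = 1.56e-12, edgeR) and 1.20 ± 0.08 (FDR = 7.9e-12), and the responses differed by -0.06 with a 95% interval of -0.30 to 0.19.

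**Figure D1:**
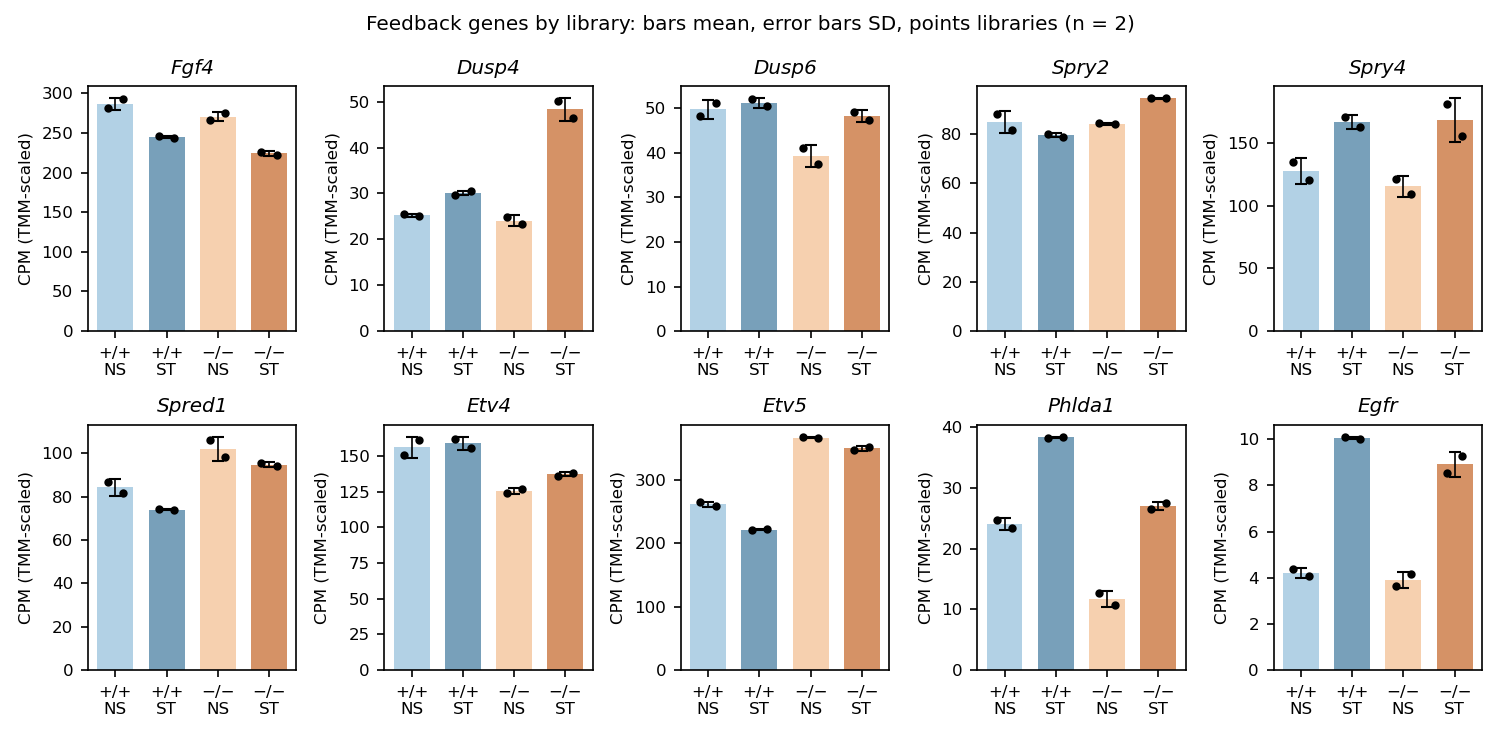
Levels of the 10 feedback genes in CPM after TMM scaling, in untreated (NS) and treated (ST) cells of IPO13+/+ and IPO13-/- genotype. Bars are means, error bars SD and points the 2 libraries of each group, and each panel has its own axis from 0. *Dusp4* stands out in treated IPO13-/- cells, with 50.1 and 46.6 CPM against at most 30.5 CPM elsewhere, and *Phlda1* is lowest in untreated IPO13-/- cells.

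**Figure D2:**
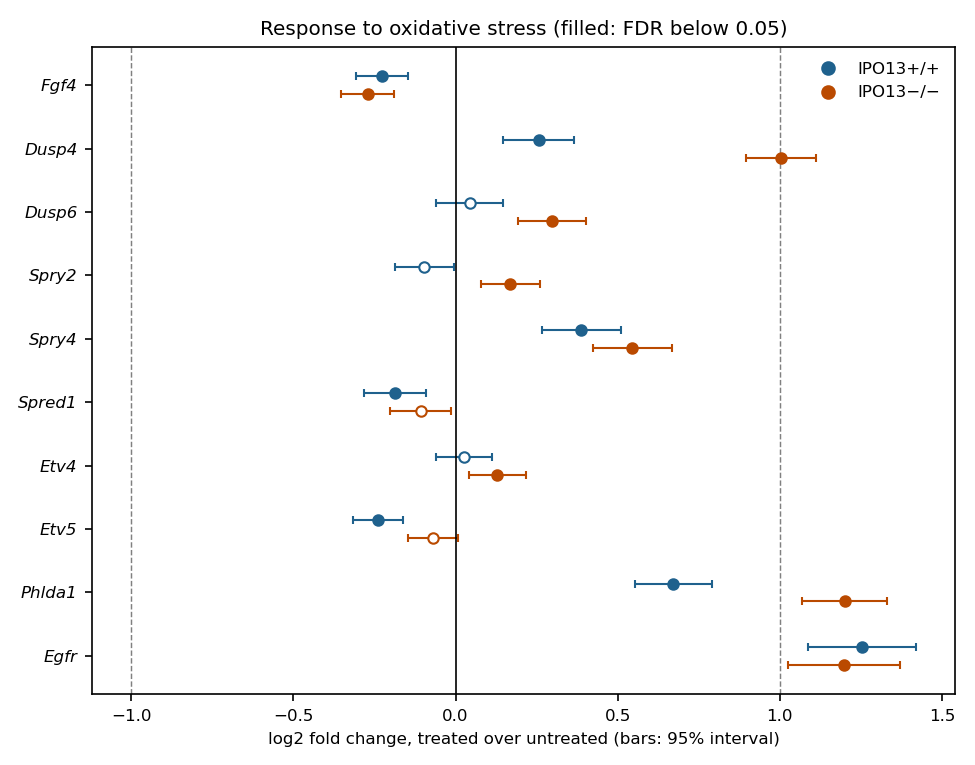
Log2 fold changes of treated over untreated cells for the 10 genes in IPO13+/+ (blue) and IPO13-/- (orange) cells, with 95% intervals. Filled points have an FDR below 0.05 and dashed lines mark a 2-fold change. Of the 10 genes, *Dusp4* and *Phlda1* lie farthest apart between the genotypes, whereas the intervals of *Egfr* and *Fgf4* nearly coincide.

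Markers of the cell state moved with stress as well. The summed level of the 7 pluripotency markers was 4713 to 4944 CPM in untreated and 4413 to 4422 CPM in treated IPO13+/+ libraries, and 4542 to 4610 CPM without and 4309 to 4414 CPM with stress in IPO13-/- libraries. *Sox2*, *Nanog*, *Klf4* and *Tdgf1* fell in both genotypes, with *Nanog* at log2 fold changes of -0.36 and -0.46 in IPO13+/+ and IPO13-/- cells (FDR = 1.86e-07 and 1.33e-09, edgeR). The other pluripotency markers did not fall in IPO13-/- cells, where *Esrrb* rose from a mean of 803 to 923 CPM (FDR = 1.1e-04) and *Pou5f1* from 1328 to 1451 CPM (FDR = 0.0365), and *Zfp42* had 68.0 and 72.9 CPM (FDR = 0.0851). The 4 primed epiblast markers summed to 308.3 to 314.1 CPM in untreated and 260.4 to 267.0 CPM in treated IPO13+/+ libraries. The sums in IPO13-/- libraries were 338.6 to 346.3 CPM without and 283.2 to 292.9 CPM with stress. These sums were mostly *Dnmt3b*, with means of 289 and 245 CPM in untreated and treated IPO13+/+ and 320 and 271 CPM in IPO13-/- cells. The mean of *Otx2* was also lower with stress in both genotypes, from 12.8 to 8.78 and 11.9 to 6.81 CPM. That of *Fgf5* was higher, from 0.453 to 0.656 and 0.646 to 1.38 CPM. *Pou3f1* had 9.48 and 9.36 CPM in IPO13+/+ and 9.55 and 9.34 CPM in IPO13-/- cells. The part of these shifts in the responses of the feedback genes was not tested.

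Whether the stress responses differed between the IPO13+/+ and IPO13-/- lines was tested by an interaction term in the same fit. With 1 line per genotype, an effect of IPO13 and other differences between the lines cannot be told apart. For 3 of the 10 genes the response was more positive in IPO13-/- cells at an FDR below 0.05, against 2.01% of all tested genes, and for 0 genes it was more negative (0.705% of all genes), nor was it for any at an unadjusted p below 0.05 or with DESeq2 or limma-voom (0 each). The median of the 10 differences was 0.16, beside 0.02 over all tested genes. Among the 11224 genes with a mean log2 CPM above 1, 3.33% were more positive and 1.05% more negative, with a median of 0.03. The 3 genes were *Dusp4*, *Phlda1* and *Spry2*.

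*Dusp4* had the clearest difference, 0.75 on the log2 scale with a 95% interval of 0.59 to 0.90 (FDR = 4.84e-07, edgeR). By its p-value it ranked 9 among the 19424 tested genes, of which 527 passed in the interaction. In CPM, stress added 4.89 ± 0.445 (SE) in IPO13+/+ cells and 24.3 ± 1.96 in IPO13-/- cells. The difference stayed between 0.68 and 0.79 in all 16 alternative fits, with FDRs of at most 0.00359.

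*Phlda1* had a difference of 0.53 with a 95% interval of 0.35 to 0.71 (FDR = 4.4e-04, edgeR), rank 79 by p-value. Its untreated level was lower in IPO13-/- cells, and in CPM the rise was 14.3 ± 0.675 in IPO13+/+ and 15.3 ± 1.05 in IPO13-/- cells, a difference of 1.03 CPM. The difference between the genotypes for *Phlda1* was thus seen in the ratio of treated to untreated levels and was small in the level added, unlike for *Dusp4*.

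*Spry2* had a difference of 0.27 with a 95% interval of 0.14 to 0.39 (FDR = 0.0173, edgeR), rank 290. Its level changed by -5.53 ± 3.30 CPM in IPO13+/+ and by 10.4 ± 0.321 CPM in IPO13-/- cells. The call was less firm than the other 2. It was lost when any 1 of the treated IPO13+/+ libraries (FDR = 0.0972 without the first and 0.148 without the second), untreated IPO13-/- libraries (0.238 and 0.143) or treated IPO13-/- libraries (0.0857 and 0.088) was left out, and also with library totals (FDR = 0.088) and limma-voom (FDR = 0.0525).

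The differences of the remaining 7 genes did not pass the test. That of *Dusp6* was 0.25 (95% interval 0.11 to 0.40, FDR = 0.0528, edgeR) and passed without the first untreated IPO13+/+ library (FDR = 0.00832). That of *Etv5* was 0.17 (0.06 to 0.28, FDR = 0.0898) and passed without the second (FDR = 0.0282). *Spry4* with 0.16 (-0.01 to 0.33), *Etv4* with 0.10 (-0.02 to 0.23) and *Spred1* with 0.08 (-0.05 to 0.21) had intervals that include 0, which bounds the difference but does not show equal responses.

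**Figure D3:**
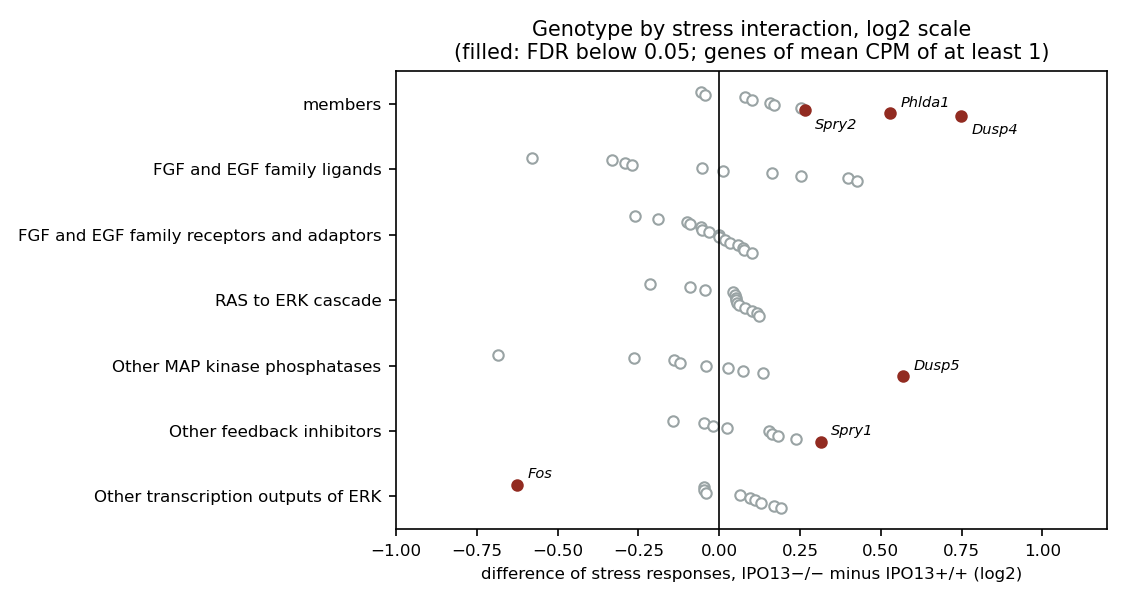
Difference of the stress responses, IPO13-/- minus IPO13+/+, on the log2 scale for the 10 feedback genes (members) and for 6 lists of other pathway genes with a mean of at least 1 CPM. Filled points have an FDR below 0.05 and are named. *Dusp4*, *Phlda1*, *Spry2*, *Dusp5* and *Spry1* lie to the right of 0, with *Dusp4* at 0.75, and *Fos* lies to the left at -0.62.

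The genotypes were then compared within each condition, with the same libraries, so these differences are not independent of the stress responses. In untreated cells 2 of the 10 genes, *Spred1* and *Etv5*, were higher in IPO13-/- cells (18.7% of all tested genes) and 3, *Dusp6*, *Etv4* and *Phlda1*, were lower (19.4%), 1 of them, *Phlda1*, by at least 2-fold (1.84%). Of the 11224 genes with a mean log2 CPM above 1, 25% were higher and 29% lower. In treated cells *Dusp4*, *Spry2*, *Spred1* and *Etv5*, 4 genes, were higher (19.1%) and *Fgf4*, *Etv4* and *Phlda1*, 3 genes, were lower (17.5%), and 0 differed by at least 2-fold in either direction (4.56%). Of the same 11224 genes 26.8% were higher and 24.2% lower there. The medians of the 10 genes were -0.10 in untreated and -0.04 in treated cells beside 0.00 over all genes.

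*Phlda1* showed the largest genotype difference of the 10 genes in untreated cells, with a log2 fold change of -1.03 ± 0.06 (FDR = 5.25e-13, edgeR). The untreated IPO13-/- libraries, with 958 and 667 counts, lay below every other library, of which the lowest had 1639 counts. The fold sits at the limit, and was -0.99 without the first untreated IPO13+/+ and -0.92 without the second untreated IPO13-/- library, and -0.95 with library totals. In treated cells the value was -0.51 ± 0.06 (FDR = 5.11e-08).

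*Etv5* was higher in IPO13-/- cells in both conditions, by 0.49 ± 0.04 (FDR = 3.97e-11, edgeR) without and 0.66 ± 0.04 (FDR = 1.18e-13) with stress. *Etv4*, the other ETS factor, was lower in both, with log2 fold changes of -0.31 ± 0.04 (FDR = 1.01e-06) and -0.21 ± 0.04 (FDR = 2.27e-04). The 4 IPO13-/- libraries lay above the 4 IPO13+/+ libraries for *Etv5* and below them for *Etv4*. *Spred1* was higher in IPO13-/- cells in both conditions, by 0.28 ± 0.05 (FDR = 1.93e-05) and 0.36 ± 0.05 (FDR = 5.49e-07), and its 4 IPO13-/- libraries also lay above all IPO13+/+ ones.

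*Dusp4* did not pass in untreated cells (-0.06 ± 0.05, FDR = 0.403, edgeR) and was higher in treated IPO13-/- cells by 0.68 ± 0.05 (FDR = 2.89e-11). *Dusp6* was lower in untreated IPO13-/- cells, with a log2 fold change of -0.34 ± 0.05 (FDR = 4.31e-06) and had -0.09 ± 0.05 (FDR = 0.201) in treated cells. *Spry2* had -0.01 ± 0.04 (FDR = 0.874) in untreated cells, where its groups overlapped, and was higher in treated IPO13-/- cells by 0.25 ± 0.04 (FDR = 4.38e-05). These 3 genes differed between the genotypes in 1 of the 2 conditions at this threshold, and the test of that difference is the interaction given above.

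*Fgf4* had -0.08 ± 0.04 (FDR = 0.0961, edgeR) in untreated and -0.13 ± 0.04 (FDR = 0.0104) in treated cells. The former passed without the first untreated IPO13+/+ library (FDR = 0.03) and the latter was lost without the first (FDR = 0.0917) or second (FDR = 0.0645) treated IPO13+/+ or the second treated IPO13-/- library (FDR = 0.104). *Spry4* had -0.14 ± 0.06 (FDR = 0.0566) and 0.01 ± 0.06 (FDR = 0.913), with overlapping groups in both conditions, and the former passed without the second untreated IPO13+/+ library (-0.23, FDR = 0.00185), with relative log expression factors (FDR = 0.043) and in a fit of only the libraries compared (FDR = 0.0485). *Egfr* had -0.12 ± 0.09 (FDR = 0.369) in untreated and -0.18 ± 0.07 (FDR = 0.0616) in treated cells, the latter with FDRs of 0.0425 and 0.0424 when the first or the second untreated IPO13+/+ library was left out of the estimate of the spread. It also passed with relative log expression factors (FDR = 0.0396) and in a fit of only the libraries compared (FDR = 0.0495).

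**Figure D4:**
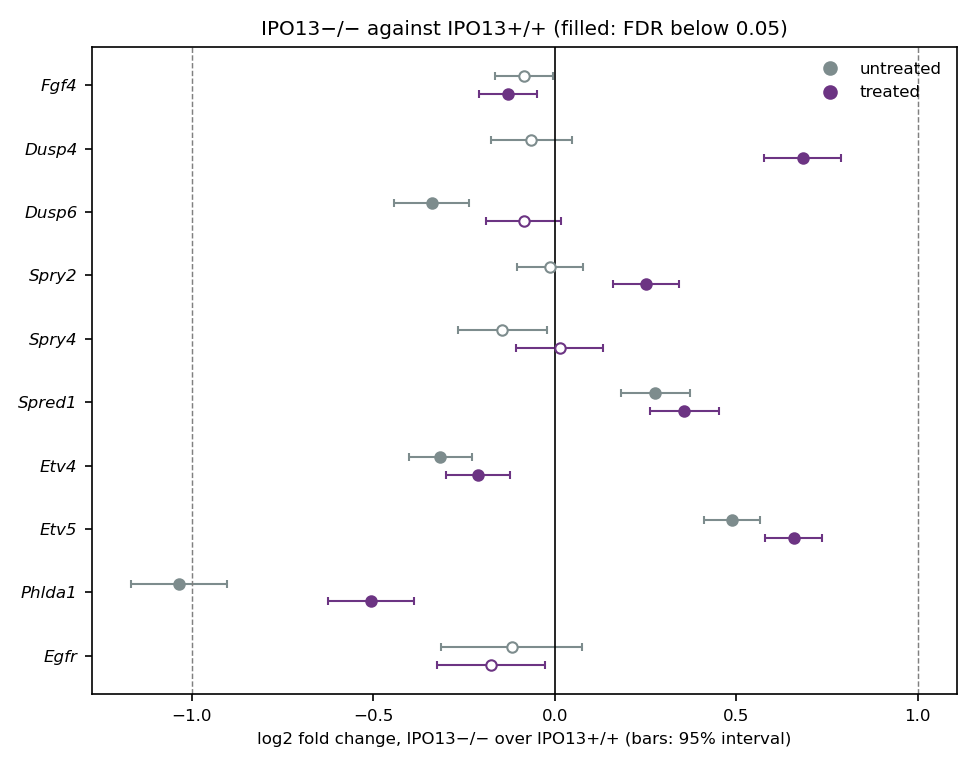
Log2 fold changes of IPO13-/- over IPO13+/+ cells for the 10 genes in untreated (grey) and treated (purple) cells, with 95% intervals. Filled points have an FDR below 0.05 and dashed lines mark a 2-fold change. *Phlda1* lies at -1.03 in untreated cells, *Etv5* is above 0 and *Etv4* below 0 in both conditions, and *Dusp4* is apart from 0 in treated cells.

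Levels of other marker lists differed between the genotypes too. The 5 trophectoderm markers summed to 63.5 to 65.8 CPM in untreated IPO13+/+ and 93.9 to 94.4 CPM in untreated IPO13-/- libraries, and to 53.4 to 56.8 against 73.9 to 77.2 CPM in treated ones. The higher sum came from *Tfap2c*, with means of 43.7 against 79.2 CPM untreated and 39.3 against 65.0 CPM treated. The other 4 trophectoderm markers had lower means in untreated IPO13-/- cells, among them *Eomes* with 17.7 against 13.3 CPM (FDR = 1.74e-05, edgeR) and *Krt7* with 2.79 against 1.33 CPM (FDR = 4.31e-07). The primed epiblast and neural progenitor sums were also higher in IPO13-/- libraries in both conditions, by ranges that did not overlap (for the neural list 22.3 to 24.0 against 27.1 to 30.0 CPM untreated and 20.5 to 21.4 against 24.6 to 24.9 CPM treated). In these lists too the members differed in direction. *Sox1* of the neural list was lower in IPO13-/- cells, with 9.56 against 4.96 CPM untreated (FDR = 1.45e-10, edgeR) and 7.13 against 3.05 CPM treated (FDR = 2.01e-11). The primed sum was mostly *Dnmt3b* (289 against 320 CPM untreated), whereas *Otx2* had 12.8 against 11.9 CPM untreated (FDR = 0.349) and was lower in treated IPO13-/- cells with 8.78 against 6.81 CPM (FDR = 0.0012). Their part in the genotype differences of the feedback genes was not tested.

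The other genes of the pathway are given by lists of their roles, to be read beside the shares of all tested genes. Under stress these shares were 11.5% higher and 13.8% lower for the wild type and 14.9% and 14.4% for the knockout, and between the genotypes 18.7% and 19.4% without and 19.1% and 17.5% with stress. Of 25 FGF and EGF family ligands, 24 were tested. Under stress 3 rose and 4 fell in the wild type (2 to 3 each with 1 library left out), and 4 rose and 5 fell in the knockout (3 to 4 and 3 to 5). These were 12.5% and 16.7% of the ligands in the wild type and 16.7% and 20.8% in the knockout, near the shares over all genes. In untreated knockout cells 8 were lower, with a median log2 fold change of -0.60, and 0 were higher (edgeR; 2 at an unadjusted p below 0.05, 0 with DESeq2 and 1 with limma-voom). In treated cells 1 was higher and 11 were lower, a count that ran from 6 to 11 when 1 library was left out (6 without the second treated IPO13+/+ or the first treated IPO13-/- library). *Fgf10*, a ligand of FGFR2b receptors, had 277 and 256 counts without and 174 and 210 with stress in IPO13+/+ libraries, and 205 and 139 without and 80 and 72 with stress in IPO13-/- libraries. It fell under stress by 0.47 (FDR = 0.00169, edgeR) and 1.05 (FDR = 1.95e-06) on the log2 scale in IPO13+/+ and IPO13-/- cells, and was lower in the knockout, with log2 fold changes of -0.64 (FDR = 3.88e-05) without and -1.22 (FDR = 8.23e-08) with stress. *Fgf5*, a marker of the primed epiblast, had 34 and 28, 42 and 48, 54 and 36, and 93 and 82 counts in the same order, and rose in IPO13-/- cells (1.08, FDR = 3.01e-05). *Ereg* and *Epgn*, ligands of the EGF receptor family, had at most 24 counts in any library and their calls rest on these low counts.

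Of 18 FGF and EGF family receptors and adaptors, 4 were higher and 8 lower in untreated knockout cells (5 lower without either untreated IPO13-/- library), and in treated ones these numbers were 5 and 6. The only ones called at 2-fold in any comparison were the co-receptors *Kl* and *Klb*, with at most 6 and 16 counts in any library. Of the receptors and adaptors, 3 rose and 4 fell under stress in each genotype, and the number that fell ran from 1 to 3 in IPO13+/+ and from 2 to 4 in IPO13-/- cells when 1 library was left out. Of the 14 listed genes of the cascade from RAS to ERK, 13 were tested and 1 was not analysed here. None of the 13 was called at 2-fold in any comparison, and 2 rose and 5 fell under stress in IPO13+/+ cells, where the numbers ran from 0 to 2 and from 1 to 6 with 1 library left out. In the knockout 1 rose and 2 fell (0 to 2 with 1 library left out). Of the cascade genes, 2 were higher and 5 lower in the knockout without stress, and 4 higher and 3 lower with stress, the 4 becoming 0 to 5 when 1 library was left out (0 without the second treated IPO13+/+ library).

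Of 9 other MAP kinase phosphatases, 3 rose and 0 fell under stress in IPO13+/+ cells (edgeR; also 0 at an unadjusted p below 0.05 and with DESeq2 or limma-voom), and 4 rose and 1 fell in IPO13-/- cells. *Dusp2*, an inducible nuclear phosphatase, had 34 and 27 counts without and 136 and 130 with stress in IPO13+/+ libraries, and 56 and 43 against 114 and 132 in IPO13-/- libraries. It rose by 2.12 ± 0.18 (FDR = 3.85e-10, edgeR) and 1.43 ± 0.16 (FDR = 7.68e-08), and the difference of -0.69 did not pass (FDR = 0.177). *Dusp5*, a nuclear phosphatase of ERK named here after its values were seen, had 1131 and 1097 counts without and 1165 and 1091 with stress in IPO13+/+ libraries, which overlapped, and 999 and 794 against 1313 and 1160 in IPO13-/- libraries. Its log2 fold change was 0.02 ± 0.06 (FDR = 0.906) in IPO13+/+ and 0.59 ± 0.06 (FDR = 3.42e-08) in IPO13-/- cells, a difference of 0.57 (FDR = 2.82e-04). Between the genotypes 4 phosphatases were higher and 4 lower in untreated knockout cells and 3 and 3 in treated ones, the latter 1 to 3 each with 1 library left out (1 and 1 without the first treated IPO13-/- library).

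Of 10 other feedback inhibitors, 2 rose and 4 fell under stress in IPO13+/+ cells (1 to 2 and 2 to 5 with 1 library left out), and 2 rose and 3 fell in IPO13-/- cells (1 to 2 and 1 to 3). Between the genotypes 1 was higher and 5 lower in untreated knockout cells, and 1 and 3 in treated ones. *Spry1*, another Sprouty gene, named after its values were seen, had 1567 and 1483 counts without and 1903 and 1819 with stress in IPO13+/+ libraries, and 976 and 769 against 1287 and 1144 in IPO13-/- libraries. It rose in both, by 0.29 ± 0.06 (FDR = 4.56e-04, edgeR) and 0.60 ± 0.06 (FDR = 2.67e-08), and was lower in IPO13-/- cells, with log2 fold changes of -0.81 without and -0.50 with stress. The difference of its responses, 0.31 (FDR = 0.0476), was lost in 14 of 16 alternative fits. In CPM the rise of *Spry1* was 4.88 ± 1.37 (SE) in IPO13+/+ and 6.55 ± 0.735 in IPO13-/- cells, a difference of 1.67 CPM. *Spry3* was called on at most 39 counts in any library.

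Of 10 other transcription outputs of ERK, 7 (*Etv1*, *Fos*, *Fosl1*, *Ier2*, *Myc*, *Ccnd1* and *Epha2*) were lower in untreated knockout cells and 6 in treated ones, while 0 were higher in either (edgeR; also 0 at an unadjusted p below 0.05 and with DESeq2 or limma-voom). These were 70% and 60% of the list, where 29% and 24.2% of the 11224 genes with a mean log2 CPM above 1 were lower. The first count ran from 5 to 8 with 1 library left out, and the median log2 fold changes were -0.37 and -0.28. Under stress 3 rose and 4 fell in each genotype, and the 4 in IPO13-/- cells became 1 without the first untreated and 2 without the second treated IPO13-/- library. *Fosl1*, an AP-1 subunit, had 254 and 291 counts without and 1262 and 1217 with stress in IPO13+/+ libraries, and 198 and 180 against 870 and 837 in IPO13-/- libraries. It rose by 2.19 ± 0.07 (FDR = 2.79e-18, edgeR) and 2.30 ± 0.08 (FDR = 5.72e-18), with a difference of 0.11 (FDR = 0.75). *Fos*, another AP-1 subunit, had 1144 and 1046 counts without and 2526 and 2643 with stress in IPO13+/+ libraries, and 921 and 646 against 1125 and 1069 in IPO13-/- libraries. It rose by 1.24 ± 0.06 (FDR = 1.43e-14) and 0.61 ± 0.07 (FDR = 1.19e-07), and the difference of -0.62 (FDR = 2.12e-04) was lost without the first untreated IPO13-/- library (-0.52, FDR = 0.0774). In CPM the rise of *Fos* was 21.7 ± 1.20 in IPO13+/+ and 6.04 ± 0.879 in IPO13-/- cells, opposite in order to *Dusp4*.

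In the interaction 0 of the 24 ligands, 18 receptors and adaptors and 13 cascade genes passed in edgeR, DESeq2 or limma-voom, with 5, 2 and 3 of them at an unadjusted p below 0.05 in edgeR. Of the other phosphatases (*Dusp5*), inhibitors (*Spry1*) and outputs (*Fos*) 1 each passed. In the alternative fits of all 8 libraries the ligands gave up to 1 gene in either direction. The inhibitors gave 0 to 2 genes with a more positive response there. The phosphatases kept 1, and the outputs kept 1 more negative gene and gave up to 1 more positive one.

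The genes with the most similar pattern were sought for the 3 members whose group means spanned at least 1 on the log2 CPM scale, by Euclidean distance between the 4 centred group means among 11224 genes. Nearest to *Dusp4* were *Ctns*, *Trpm1* and *Kcnh4*, at distances of 0.155, 0.162 and 0.184 in log2 CPM. Nearest to *Phlda1* were *Cdkn1a*, *Gpnmb* and *Cldn4*, at 0.141, 0.169 and 0.182. Nearest to *Egfr* were *Trib2*, *Slc37a2* and *Rap2a*, at 0.094, 0.11 and 0.11. The closest other member was *Spry4* at 0.506 for *Dusp4*, *Egfr* at 0.751 for *Phlda1* and *Phlda1* at 0.751 for *Egfr*. With 11224 genes searched and few members among them, a nearer gene outside the members is all but given. The distances are a description over 4 group means and carry no test.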

How the data were processed

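mRNA libraries of mESCs, 8 in 4 groups of 2, were sequenced with paired ends, and reads were mapped to mm10 by the authors. The submitters' processing notes name bcl2fastq, STAR 2.3.1, HTSeq and limma without their roles. The gene annotation and strand setting of the counting are not given in the sources used here, so reads of overlapping and antisense genes cannot be told apart, and the labels and the Methods differ on sequencer model and lanes. The authors deposited raw counts for 23420 gene symbols and the same values as CPM, each count divided by the library total. The deposited CPM were only checked against the counts, from which they differed by at most 5e-04. Group and replicate were taken from the labels. 2 duplicated symbols were kept as separate rows.

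In R 4.3.3 all genes that had a count in 1 or more libraries (19424) were scaled with TMM factors and fitted with edgeR 4.0.16 (quasi-likelihood, 1 coefficient per group, 8 libraries). FDR is the Benjamini-Hochberg adjusted p-value over all tested genes. A gene rose, fell or differed at an FDR below 0.05, and was called at 2-fold where its log2 fold change also reached 1 in size. The interaction used the FDR alone. Standard errors (SE) were taken from the fold change and the root of the F statistic. CPM are TMM-scaled, with SD over 2 libraries. For 2 against 2 libraries an exact permutation test cannot go below p = 0.333 and was not used. The floor of 3 counts covers counting error only.

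The 10 members and all gene lists were chosen with earlier results of these data known. Genes named are the members, *Ipo13*, the cell type markers, the called genes of each pathway list (at most 4, by largest fold change), and the 3 genes nearest in pattern to members spanning at least 1 log2 unit, and others are marked. Alternatives were relative log expression factors, library totals, filterByExpr, at least 10 counts over all libraries, DESeq2 1.42.0, limma-voom (limma 3.58.1), the replicate number as a block, only the libraries compared, and leaving out each library, where the lone library of a group is assumed to vary like the others. DESeq2 without independent filtering was added after the data were examined. The procedure was tested on simulated data. Positions and lengths are from GENCODE M21 (GRCm38), which held 21751 of the symbols.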

Additional observations from a re-analysis of the deposited data

Results flagged for a closer look

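The responses to stress of 6 pathway genes differed between IPO13-/- and IPO13+/+ cells by the interaction test of edgeR (FDR below 0.05), on which this list rests. They were 3 of the 10 members and 1 each of 9 other phosphatases, 10 other inhibitors and 10 other outputs. Of the 24 ligands, 18 receptors and adaptors and 13 cascade genes 0 passed. Over all tested genes 2.01% were more positive and 0.705% more negative. Among the 11224 genes with a mean log2 CPM above 1 these shares were 3.33% and 1.05%. The response was more positive in IPO13-/- cells for *Dusp4* (0.75 on the log2 scale), *Dusp5* (0.57), *Phlda1* (0.53), *Spry1* (0.31) and *Spry2* (0.27), and less positive for *Fos* (-0.62). In CPM the changes with stress differed by 19.4, 6.33, 1.03, 1.67, 15.9 and -15.6 in the same order, so that *Phlda1* and *Spry1* differed little in the level added. The values for *Dusp4*, *Phlda1* and *Dusp5* passed in every alternative fit run, with largest FDRs of 0.00359, 0.0459 and 0.0485. Those for *Spry1* and *Spry2* were lost in 14 and 8 of 16 such fits, and that for *Fos* in 1.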

How the results depend on the processing

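Without the fold limit, the members that rose or fell numbered 4 and 3 under stress in IPO13+/+ cells, 7 and 1 in IPO13-/- cells, and those higher and lower in IPO13-/- cells 2 and 3 untreated and 4 and 3 treated. With library totals, 3 members fell under stress in IPO13-/- cells and 0 were lower by 2-fold in untreated IPO13-/- cells, in which *Dusp4* (0.017) and *Spry2* (0.068) changed sign, as did *Spry2* with filterByExpr (0.003) and in the fit of only the libraries compared (0.001). *Spry4* in treated cells became -0.002 with relative log expression factors and with DESeq2, with or without independent filtering. Scaling moved the median of all genes by at most 0.0806. The cause was not tested.

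Over 9037 genes, the deviations of same-numbered libraries correlated at 0.356, 0.618 and 0.329 between untreated IPO13+/+, untreated IPO13-/- and treated IPO13-/- cells, and at -0.0223, -0.0865 and -0.0017 between treated IPO13+/+ cells and these groups. Since not every group shares the pattern and no label names a shared culture or day, the libraries were not treated as paired. With the replicate block 2 members fell under stress in IPO13-/- cells, with *Spred1* added (FDR = 0.0269). The block gave 5 lower members in untreated IPO13-/- cells, with *Fgf4* (FDR = 0.0475) and *Spry4* (FDR = 0.00101) added, and *Egfr* passed between treated genotypes (FDR = 0.0383). It gave 5 members with a more positive response in IPO13-/- cells, with *Dusp6* (FDR = 0.00517) and *Etv5* (FDR = 0.0197) added.

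With 1 library left out, the members numbered 4 to 4 higher and 3 to 4 lower under stress in IPO13+/+ cells, 6 to 7 and 1 to 2 in IPO13-/- cells (2 to 3 by 2-fold), 2 to 2 and 3 to 4 (0 to 1 by 2-fold) between untreated and 4 to 4 and 2 to 4 between treated genotypes, and 2 to 4 in the interaction. The values that changed sign were *Etv4* in IPO13+/+ stress (-0.020 to 0.074), *Spry2* in untreated genotypes (-0.067 to 0.043), *Spry4* in treated genotypes (-0.098 to 0.117) and the *Egfr* interaction (-0.175 to 0.029), none of which passed. The 2 libraries per group limit what can be told from 0.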
